A study of Mus musculus with 18 samples.

Results

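The immediate early genes described here are Fos, Fosb, Jun, Junb, Atf3, Egr1, Nr4a1, Ier2, Dusp1 and Btg2. They were taken by name, as the rows of the count tables whose Ensembl gene ID carries 1 of these symbols in GENCODE M21, and all 10 were found among 47729 genes. RNA came from epithelial cells sorted by flow cytometry from the ileum, the last stretch of the small intestine, of female mice. There were 6 libraries from pregnant, 6 from pseudopregnant and 6 from virgin mice. Pseudopregnancy is a luteal state of mice that carry no embryos. All animals ate RM3 chow while breeding and RM1 chow in maintenance and in the experiment. The labels give no strain, age, day of pregnancy, means of inducing pseudopregnancy, hour of collection, dissociation method, time to lysis, sorting markers or batch. They do not say that replicates were separate animals, so each p-value reflects only how far these samples spread, and that spread may be technical.

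Immediate early genes are transcribed within minutes of a stimulus, from promoters already occupied by factors such as SRF and CREB that MAP kinase and cAMP signalling activate, without new protein synthesis. Fos and Jun family proteins pair through leucine zippers into AP-1, which binds DNA and drives later genes, while the phosphatase DUSP1 inactivates the MAP kinases and so closes the response. In intestinal epithelium the family responds to growth factors, injury and microbial signals. Releasing cells from tissue with enzymes and passing them through a sorter can also induce it, and every library here was made from sorted cells, so the groups were compared with no unsorted tissue beside them.

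The start-site regions of 8 of the 10 genes were in the RefSeq promoter table (GRCm38.p6), and Egr1 and Ier2 were not. The window searched was the 250 bases before the start. The cAMP response element that CREB and ATF proteins bind, TGACGTCA on either strand, was in 2 of these 8, Btg2 and Dusp1, and in 1.55% of all 32851 promoters. Its shorter form TGACG, on either strand and contained in the longer one, was in 7 of the 8, all but Jun, and in 17.8% of all promoters. The TATA box TATAAA, read on the gene's strand, was in Fos alone of the 8, starting 33 bases before the start, and in 7.59% of all. The letters GGGCGG, a GC box, on either strand, were in 7 of the 8, all but Junb, and in 32.7% of all. The AP-1 site TGANTCA and the CArG box that SRF binds, both searched on both strands, were in 0 of the 8, and in 6.75% and 1.47% of all. These matches describe letters in the window and say nothing of binding, or of sites outside the window or spelled otherwise. The sequences of 6 promoters are shown because these genes include the 2 with the full element, the gene with the most TGACG matches (Nr4a1), the single one with none (Jun), and pairs whose levels went together or apart below. Each runs 5′ to 3′ on the gene's strand, with TGACG, its complement CGTCA and TATAAA in capitals. The regions are Fos at chr12:85473640-85473889 (plus strand), Btg2 at chr1:134079156-134079405 (minus), Dusp1 at chr17:26508473-26508722 (minus), Jun at chr4:95052223-95052472 (minus), Junb at chr8:84978749-84978998 (minus) and Nr4a1 at chr15:101266596-101266845 (plus). RefSeq gives 1 start per gene here, which for Nr4a1, Dusp1, Btg2 and Junb differs from the end of the GENCODE span given below.
Fos: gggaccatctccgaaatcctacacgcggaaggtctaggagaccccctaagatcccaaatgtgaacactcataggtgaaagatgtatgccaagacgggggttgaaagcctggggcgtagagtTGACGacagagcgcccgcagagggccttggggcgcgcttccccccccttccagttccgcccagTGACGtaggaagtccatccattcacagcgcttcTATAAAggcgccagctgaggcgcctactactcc
Btg2: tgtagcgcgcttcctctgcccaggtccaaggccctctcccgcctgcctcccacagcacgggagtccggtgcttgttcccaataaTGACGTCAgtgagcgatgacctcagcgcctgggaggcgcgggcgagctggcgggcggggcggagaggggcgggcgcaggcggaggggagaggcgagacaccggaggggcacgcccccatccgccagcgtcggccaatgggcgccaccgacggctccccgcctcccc
Dusp1: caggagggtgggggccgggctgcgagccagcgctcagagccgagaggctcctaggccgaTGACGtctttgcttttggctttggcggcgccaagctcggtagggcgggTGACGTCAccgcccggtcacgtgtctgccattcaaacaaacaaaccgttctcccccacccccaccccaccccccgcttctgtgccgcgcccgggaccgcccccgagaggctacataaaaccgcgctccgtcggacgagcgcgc
Jun: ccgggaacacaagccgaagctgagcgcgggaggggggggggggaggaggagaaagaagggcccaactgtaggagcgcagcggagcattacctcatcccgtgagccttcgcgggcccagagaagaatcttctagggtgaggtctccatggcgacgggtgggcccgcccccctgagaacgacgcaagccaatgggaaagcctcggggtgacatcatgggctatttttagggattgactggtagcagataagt
Junb: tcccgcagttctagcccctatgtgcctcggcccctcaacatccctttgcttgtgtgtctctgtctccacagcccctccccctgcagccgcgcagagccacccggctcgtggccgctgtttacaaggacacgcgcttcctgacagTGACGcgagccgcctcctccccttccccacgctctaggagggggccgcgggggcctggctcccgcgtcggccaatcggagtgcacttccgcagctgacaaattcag
Nr4a1: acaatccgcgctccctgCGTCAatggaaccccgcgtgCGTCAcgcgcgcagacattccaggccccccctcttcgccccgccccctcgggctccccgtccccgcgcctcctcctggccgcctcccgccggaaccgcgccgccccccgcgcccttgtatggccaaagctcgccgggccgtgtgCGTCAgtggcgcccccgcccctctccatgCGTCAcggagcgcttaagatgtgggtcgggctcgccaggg

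Libraries held 24.9 to 37.3 M (mega) counts, with a median of 31.5 M. Levels below are in CPM, counts relative to the library's total, scaled between libraries by the TMM method. Levels of genes that overlap these 10 on the genome, and summed levels of marker lists, are CPM without that scaling. The epithelial gene Epcam stood at 1639 to 3589 CPM in the 18 libraries and the leukocyte gene Ptprc at 0.198 to 0.638 CPM. In bulk RNA such as this, fewer cells of a type and less RNA per cell cannot be told apart. Of 47729 genes, 14675 passed a filter on low counts, all 10 immediate early genes among them. No gene was deleted or overexpressed in these mice, so there was no targeted gene to check.

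All 10 genes were detected in every library, most of them at high levels. On the scale of CPM per kilobase of annotated exon, with all exons of a gene joined, Fos led with 369 ± 42.9 (SD, n = 18 libraries). That level was above those of 98.5% of the genes tested. Ier2 followed with 200.1 ± 62.7, Jun with 167 ± 25.1 and Junb with 148 ± 35.5 CPM per kilobase. Ier2 lay above Jun in 10 of 18 libraries and Jun above Junb in 15, so the order of Ier2 and Jun was not settled by these libraries. Btg2 (91.6 ± 11.9), Egr1 (61.7 ± 11.6) and Atf3 (57.6 ± 16.7) formed a middle tier. Egr1 exceeded Atf3 in 13 of 18 libraries. Dusp1 (34.3 ± 6.15) and Fosb (31.5 ± 9.36) were close, with Dusp1 the higher in 11 of 18. Nr4a1 was far below the others at 3.54 ± 1.31 CPM per kilobase, above 49.0% of genes, with 166 to 659 counts in a library. The joined exons are longer than the longest coding transcript for Fosb (6243 against 3782 bases), Dusp1 (3311 against 1990) and Junb (2301 against 1809). They also are for Nr4a1 (3509 against 2553), but not for Ier2, Jun, Btg2 and Egr1. The order of Jun and Junb, and the tiers, thus rest on the length chosen. The order by transcript length was not computed.

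**Figure D1:**
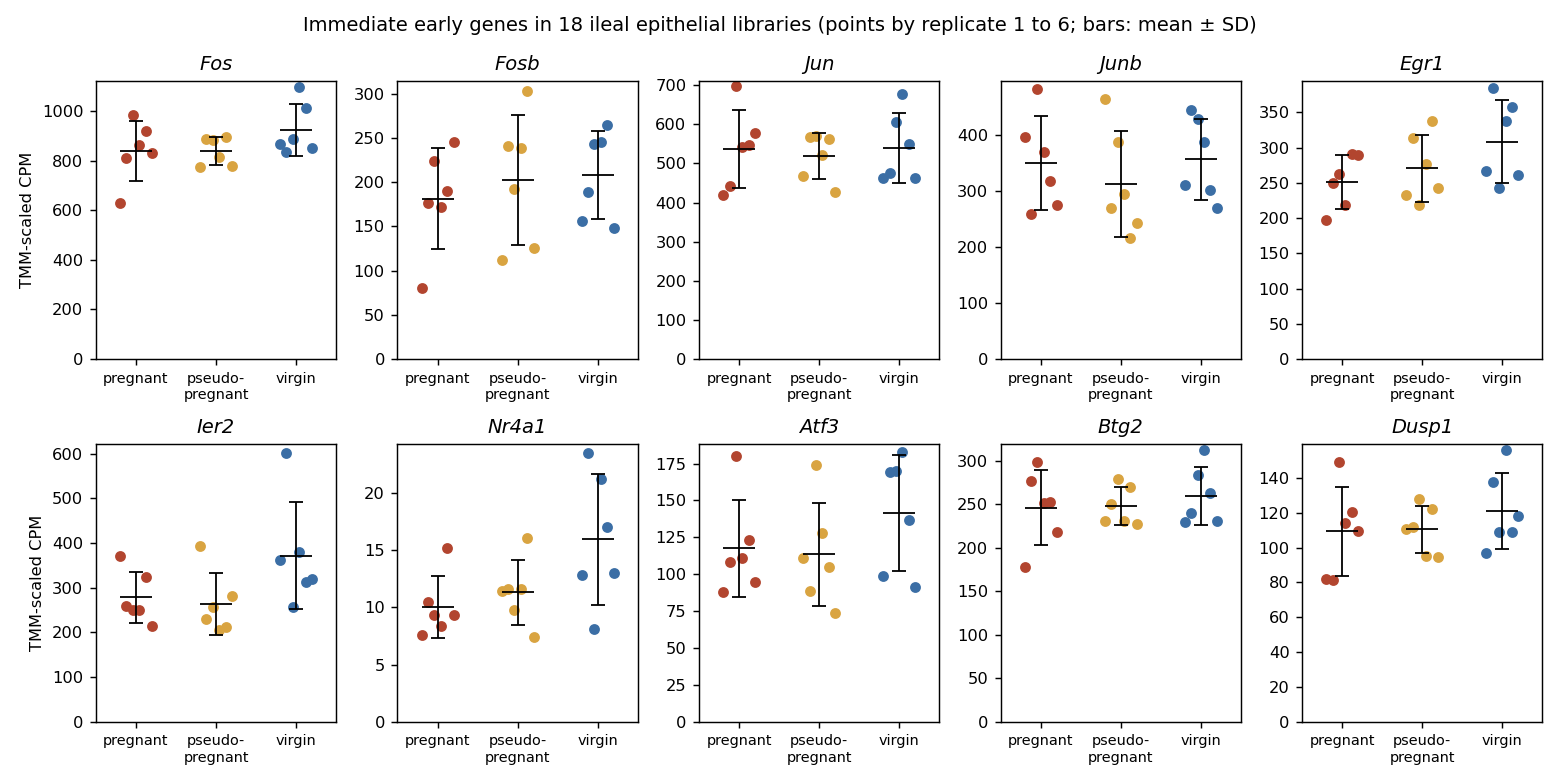
TMM-scaled CPM (linear axis from 0, with its own scale for each gene) of the 10 immediate early genes in each of the 18 libraries. Points are libraries, with pregnant, pseudopregnant and virgin from left to right, bars are the mean ± SD of 6, and the 3 groups overlap for every gene.

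The first question was whether these genes differ between pregnant or pseudopregnant ileal epithelium and that of virgin mice. None passed the test in either comparison. All 10 had negative log2 fold changes in each, with the most negative point estimates for Nr4a1 and Ier2, followed by Egr1 in pregnant and Atf3 in pseudopregnant libraries. Both comparisons use the same 6 virgin libraries, so that the signs match does not count as a second observation. Among all 14675 genes tested, 51.5% had a negative fold change in pregnant against virgin libraries and 49.4% in pseudopregnant against virgin libraries. The median log2 fold change of the 10 was -0.17 in the pregnant and -0.16 in the pseudopregnant comparison, where that of all genes was -0.008 and 0.004. Levels of the 10 genes also went together across libraries (median r 0.46 over pairs), so their signs are not separate observations. Other lists were one-sided too. In pregnant against virgin libraries 20 of 20 proliferation genes were lower (median -0.19) and 18 of 20 absorptive enterocyte genes higher (0.44). In pseudopregnant against virgin libraries 7 of 7 Paneth cell genes were lower (-0.48), while proliferation genes gave 12 higher and 8 lower.

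Among the AP-1 genes, Fos encodes the founding member of the family, which must pair with a Jun protein to bind DNA (chromosome 12, 85473890 to 85477273, plus strand, GRCm38). Its lowest, median and highest levels were 631, 849 and 984 CPM in pregnant, 774, 850.4 and 895 CPM in pseudopregnant and 837, 877 and 1099 CPM in virgin libraries. The 3 groups overlapped, with the lowest of all 18 in pregnant replicate 1 and the highest in virgin replicate 4. The log2 fold change was -0.14 (SE 0.12, 95% interval -0.40 to 0.12) in pregnant and -0.14 (SE 0.12, -0.40 to 0.12) in pseudopregnant libraries against virgin ones. Fosb (chromosome 7, 19302696 to 19310051, minus strand) encodes a Fos relative whose truncated splice form, ΔFosB, is long-lived. It stood at 80.0, 183 and 245 CPM in pregnant, 112, 216 and 303 CPM in pseudopregnant and 148, 216 and 264 CPM in virgin libraries. Its spread was the widest of the 10, at 3.78-fold between the lowest and highest library, and its fold changes against virgin were -0.20 (SE 0.26) in pregnant and -0.04 (SE 0.26) in pseudopregnant libraries. Counts per gene do not separate its splice forms.

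Jun, which encodes the AP-1 subunit c-Jun (chromosome 4, 95049034 to 95052222, minus strand), ranged over 420.5, 544 and 697 CPM in pregnant, 428, 541 and 570.2 CPM in pseudopregnant and 462, 512 and 678 CPM in virgin libraries. The groups overlapped, the pseudopregnant range being the narrowest, and the fold change was -0.004 (SE 0.14, 95% interval -0.30 to 0.29) in pregnant and -0.05 (SE 0.14, -0.35 to 0.24) in pseudopregnant libraries. Junb, a Jun relative that is the weaker activator and can oppose c-Jun (chromosome 8, 84974484 to 84978718, minus strand), stood at 259, 344 and 483 CPM in pregnant, 216, 282 and 465 CPM in pseudopregnant and 269, 348 and 444 CPM in virgin libraries. Its fold changes were -0.03 (SE 0.20) in pregnant and -0.19 (SE 0.20) in pseudopregnant libraries. Atf3, a stress-induced factor that represses many of its targets as a homodimer (chromosome 1, 191170296 to 191218039, minus strand), stood at 88.0, 109.7 and 180.2 CPM in pregnant, 73.8, 108 and 174 CPM in pseudopregnant and 91.4, 153 and 183 CPM in virgin libraries. Of the 6 pregnant libraries, 5 lay below the virgin median for Atf3, and the fold changes were -0.27 (SE 0.22) in pregnant and -0.32 (SE 0.22) in pseudopregnant libraries. The kit keeps strand, but whether the counting used it is not given in the sources used here. Jun shares 232 exonic bases with its antisense gene Junos (0.123 to 0.547 CPM), and Junb shares 173 with Prdx2 on the other strand (127 to 289 CPM), so counts for Junb are the less certain of the 2.

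Egr1 and Nr4a1 bind DNA outside the AP-1 family. Egr1 encodes a zinc finger factor that growth factors induce through SRF (chromosome 18, 34859823 to 34864984, plus strand). It stood at 197, 256 and 290.3 CPM in pregnant, 219, 259.9 and 338 CPM in pseudopregnant and 242, 302 and 385 CPM in virgin libraries. All 6 pregnant libraries were below the virgin median, though the ranges overlapped, and the fold changes were -0.29 (SE 0.15, 95% interval -0.60 to 0.013, unadjusted p = 0.0597) in pregnant and -0.19 (SE 0.15) in pseudopregnant libraries, by edgeR's quasi-likelihood test. Nr4a1 encodes Nur77, an orphan nuclear receptor (chromosome 15, 101254269 to 101274795, plus strand). Its levels were 7.61, 9.33 and 15.2 CPM in pregnant, 7.40, 11.5 and 16.1 CPM in pseudopregnant and 8.15, 15.0 and 23.5 CPM in virgin libraries. In both the pregnant and the pseudopregnant group 5 of 6 libraries lay below the virgin median, while the lowest virgin library lay inside both other ranges. Against virgin libraries the log2 fold change of Nr4a1 was -0.66 (SE 0.23, 95% interval -1.15 to -0.18) in pregnant and -0.50 (SE 0.23, -0.98 to -0.011) in pseudopregnant libraries. In edgeR's quasi-likelihood test its unadjusted p was 0.0101 and 0.0455, and its adjusted p = 0.891 and 0.515 (Benjamini-Hochberg over all genes). In pregnant against virgin libraries its p had rank 69 of 14675.

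Ier2 encodes a short nuclear protein induced by growth factors, from a gene with a single exon (chromosome 8, 84661331 to 84662852, minus strand). It stood at 215, 256 and 372 CPM in pregnant, 206, 243 and 393 CPM in pseudopregnant and 257, 341 and 602 CPM in virgin libraries. The highest value was that of virgin replicate 2, and 5 of 6 libraries in the pregnant and in the pseudopregnant group were below the virgin median. The log2 fold change was -0.42 (SE 0.20, edgeR unadjusted p = 0.05001) in pregnant and -0.50 (SE 0.20, unadjusted p = 0.021) in pseudopregnant libraries, with adjusted p = 0.891 and 0.515. Without virgin replicate 2 the values became -0.23 and -0.33, and those of Nr4a1 -0.52 and -0.37.

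Dusp1 and Btg2 encode no DNA-binding factor. Dusp1, the MAP kinase phosphatase gene (chromosome 17, 26505590 to 26562128, minus strand), stood at 81.5, 112 and 149 CPM in pregnant, 94.8, 111 and 128 CPM in pseudopregnant and 96.9, 114 and 156 CPM in virgin libraries. The medians of the 3 groups nearly coincided, and the fold changes were -0.15 (SE 0.15) in pregnant and -0.14 (SE 0.15) in pseudopregnant libraries. The annotated Dusp1 span holds Gm8225 (30.6 to 106 CPM) and overlaps Ergic1 by 11 exonic bases, both on the other strand. Btg2, an antiproliferative p53 target that promotes mRNA deadenylation (chromosome 1, 134075170 to 134079120, minus strand), stood at 178, 253 and 299 CPM in pregnant, 227, 241 and 279 CPM in pseudopregnant and 230.0, 251 and 313 CPM in virgin libraries. Its fold changes were -0.08 (SE 0.12, 95% interval -0.34 to 0.18) in pregnant and -0.07 (SE 0.12, -0.33 to 0.19) in pseudopregnant libraries.

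At an adjusted p under 0.05, edgeR called 0 of the 10 genes in either comparison, where it called 0% of all genes. At an unadjusted p under 0.05 it held 1 of 10 in pregnant against virgin libraries (Nr4a1), where 3.68% of all genes did, with 1.66% lower and 2.02% higher in pregnant libraries. In pseudopregnant against virgin libraries it held 2 of 10 (Ier2 and Nr4a1), where 9.37% of all genes did, with 2.01% lower and 7.36% higher in pseudopregnant libraries. DESeq2 gave 1 and 2 of 10 (4.27% and 10.2% of all genes) and limma-voom 1 and 1 (3.60% and 7.54%). Without virgin replicate 2, 0 of 10 remained at that level in pseudopregnant against virgin libraries, where 4.76% of all genes did. The groups overlapped for all 10 genes in both comparisons, against groups that did not overlap, lower side, in 0.0273% and 0.0341% of genes, and higher side in 0.0409% and 0.0341%.

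**Figure D2:**
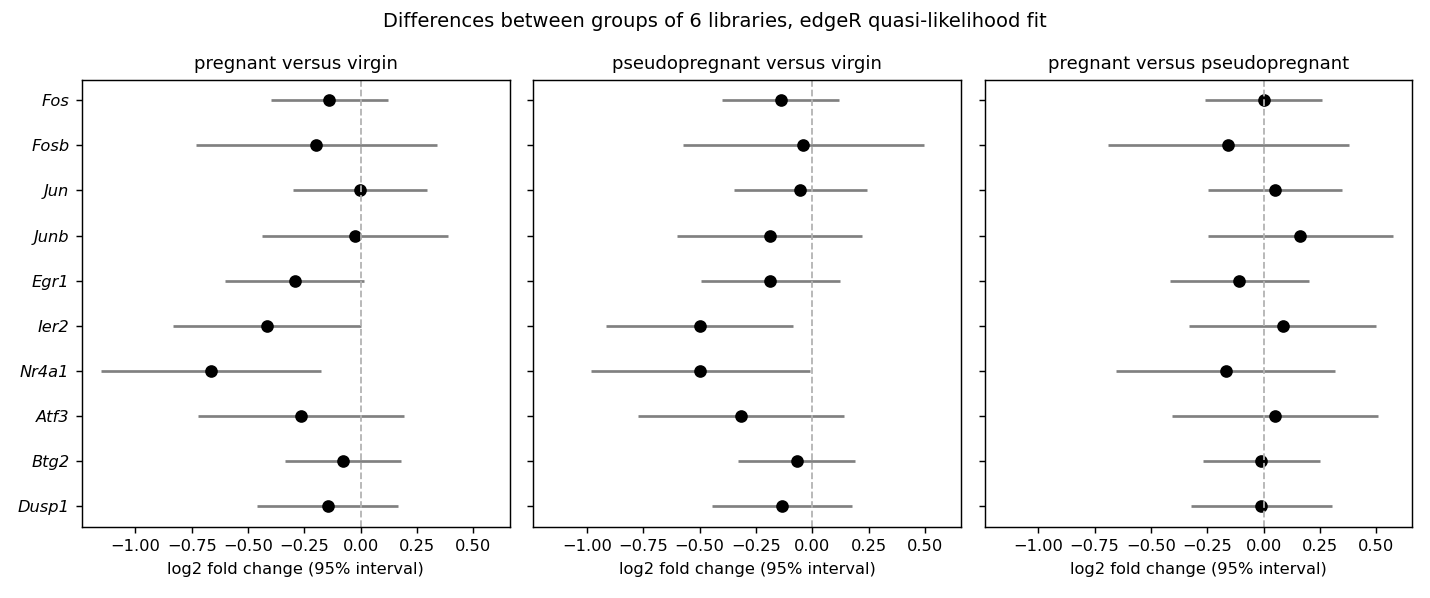
Log2 fold change of each gene in pregnant against virgin, pseudopregnant against virgin and pregnant against pseudopregnant libraries, with 95% intervals from the edgeR model of 18 libraries. Values against virgin libraries are negative for all 10 genes, and those of Nr4a1 lie farthest below 0 in pregnant libraries (-0.66).

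Between pregnant and pseudopregnant libraries, the comparison of gestation with a luteal state without embryos, the 10 genes divided evenly. There were 5 positive and 5 negative fold changes, where 51.6% of all genes were negative, with a median of -0.005 for the 10 genes and -0.008 for all genes. The farthest from 0 were Nr4a1 at -0.17 (SE 0.23, 95% interval -0.66 to 0.32), Junb at 0.16 (SE 0.20, -0.25 to 0.57) and Fosb at -0.16 (SE 0.26, -0.69 to 0.38). Fos had a fold change of 0.001 (SE 0.12, -0.26 to 0.26), so a difference of more than 0.26 in either direction lies outside its interval. For the noisier Fosb the interval leaves room for 0.69. In the edgeR test 0 of 10 passed at an adjusted p under 0.05 (0% of all genes) and 0 of 10 at an unadjusted p under 0.05 (2.35% of all genes, 1.59% lower and 0.763% higher in pregnant libraries). DESeq2 and limma-voom likewise gave 0 at the unadjusted level (2.65% and 1.68% of all genes).

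A longer list of other immediate early genes had 47 of its 53 members above the count filter, and 0 passed the adjusted threshold in any comparison. In pregnant against virgin libraries 19 were higher and 28 lower in point estimate (median -0.06). At an unadjusted p under 0.05 in edgeR's test there were 1 higher and 7 lower, where 2.02% of all genes were higher and 1.66% lower. In pseudopregnant against virgin libraries 9 were higher and 38 lower (median -0.20), with 1 and 7 at the unadjusted level. Of all genes 7.36% were higher and 2.01% lower at that level. Klf2, a zinc finger factor best known from endothelium and T cells, had the smallest p of the list in both. It stood at 10.5, 12.7 and 15.9 CPM in pregnant, 11.6, 12.9 and 16.7 CPM in pseudopregnant and 13.5, 20.1 and 40.4 CPM in virgin libraries, with log2 fold changes of -0.79 (SE 0.21) and -0.72 (SE 0.21). The highest value was again in virgin replicate 2. In the pregnant comparison the next were the secreted matrix protein gene Ccn1 (-0.59, SE 0.19), the AP-1 gene Fosl1 (-0.97, SE 0.34) and the Egr1 relative Egr2 (-0.48, SE 0.20). Fosl1 was scarce, at 0.261 to 1.42 CPM over all libraries. In the pseudopregnant comparison the next were Phlda1 (-1.002, SE 0.32), the stress sensor Gadd45g (-0.72, SE 0.29) and the ERK phosphatase gene Dusp5 (-0.44, SE 0.18). Pregnant against pseudopregnant libraries gave 30 higher and 17 lower (median 0.08), and the smallest p belonged to the NF-κB inhibitor genes Tnfaip3 (0.63, SE 0.28) and Nfkbia (0.50, SE 0.26), to Irf1 (0.43, SE 0.22) and to Btg1 (0.26, SE 0.14).

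Transcript levels were also compared for 28 upstream regulators, all tested: SRF and its partners, CREB, MAP kinases, and the EGF receptor with its ligands. These levels do not measure the activity of the pathway, which was not tested. In point estimate 23 regulators were higher and 5 lower in pregnant against virgin libraries (median 0.09). In pseudopregnant against virgin libraries 20 were higher and 8 lower (median 0.22). At an unadjusted p under 0.05 there were 0 higher and 2 lower in the pregnant and 9 higher and 1 lower in the pseudopregnant comparison. Of all genes, 2.02% were higher and 1.66% lower in the pregnant and 7.36% higher and 2.01% lower in the pseudopregnant comparison. With the length slope described below as a covariate, the share of all genes in the pseudopregnant comparison fell from 9.37% to 2.11%. Counts for the regulators in that fit were not computed. The 2 regulators of smallest p in the pregnant comparison nevertheless had negative fold changes, and both encode EGF receptor ligands. Hbegf stood at 101, 113 and 146 CPM in pregnant and 117, 143 and 226 CPM in virgin libraries (-0.41 in log2 fold change, SE 0.16). Areg stood at 16.0, 19.8 and 35.5 CPM in pregnant and 24.8, 25.8 and 47.8 CPM in virgin libraries (-0.46, SE 0.22). In pseudopregnant libraries the smallest p belonged to the SRF coactivator gene Mrtfb (0.66, SE 0.22) and the receptor gene Erbb3 (0.67, SE 0.23). Pregnant against pseudopregnant libraries gave 9 higher and 19 lower (median -0.11), led by Elk1 (-0.66, SE 0.26) and Egfr (-0.42, SE 0.21). Of these 28 genes, 0 passed the adjusted threshold in any of the 3 comparisons.

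Of 13 dimer partners and other AP-1 genes 11 were tested, and 0 passed the adjusted threshold in any comparison. They gave 7 higher and 4 lower in pregnant against virgin libraries (median 0.07), led by Fosl1 and by Fosl2 (0.32, SE 0.15). Pseudopregnant against virgin libraries gave 3 higher and 8 lower (median -0.09), led by Atf7 (0.77, SE 0.30) and Fosl1 (-0.71, SE 0.33). Pregnant against pseudopregnant libraries gave 9 higher and 2 lower (median 0.08), led by Jdp2 (0.67, SE 0.38) and Atf7 (-0.51, SE 0.30). Heat shock chaperone genes, which tissue dissociation can also induce, were lower in point estimate in 13 of 13 in pregnant against virgin libraries (median -0.25) and in 11 of 13 in pseudopregnant against virgin libraries (median -0.24). Of all genes 51.5% and 49.4% had negative fold changes in these comparisons. Hspa1b, an inducible HSP70 gene, stood at 167, 285 and 426 CPM in pregnant, 258, 336 and 419.8 CPM in pseudopregnant and 163, 477 and 742 CPM in virgin libraries. Its fold change in pregnant against virgin libraries was -0.62 (SE 0.28), and that of the HSP40 gene Dnajb1 was -0.34 (SE 0.15). Dnaja1 (-0.30, SE 0.13) and Dnajb1 (-0.30, SE 0.15) led the pseudopregnant comparison. Pregnant against pseudopregnant libraries gave 10 of 13 lower (median -0.08), led by Hspa8 (-0.19, SE 0.19) and Hsph1 (-0.37, SE 0.36). The chaperone genes also had 0 past the adjusted threshold in every comparison. What part time in dissociation or sorting had in any of these values was not tested.

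Within groups the 10 genes were not equally steady. The within-group SD of log2 CPM was 0.17 for Fos, and 7.80% of the 500 genes nearest in level had a smaller one. Btg2 (0.20, 18.4%) and Jun (0.23, 20.6%) were likewise steady for their level. Egr1 (0.25, 35.6%) and Dusp1 (0.26, 45.8%) were near the middle, and Junb (0.36, 60.2%) and Ier2 (0.35, 60.4%) a little above it. Nr4a1 (0.43, 74.4%), Atf3 (0.41, 78.4%) and Fosb (0.51, 91.8%) varied more than most genes of their level. The steadiest and the most variable member were thus both Fos family genes.

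Libraries of the same group differed in the level of the family as a whole. The mean over the 10 genes of log2 CPM, centred on each gene's mean, ran between -0.39 in pregnant replicate 1 and 0.43 in virgin replicate 4. In virgin replicate 4 all 10 genes were above their own mean, and in pseudopregnant replicate 6 (-0.34) 0 of 10 were. Virgin replicate 2 was second highest (0.35), with 7 of 10 above their mean, followed by pregnant replicate 3 (0.21). Without pregnant replicate 1 the count of negative fold changes against virgin libraries was 9 of 10 and their median -0.07. Without virgin replicate 4 the count in the pseudopregnant comparison was 8 of 10 and the median -0.12.

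**Figure D3:**
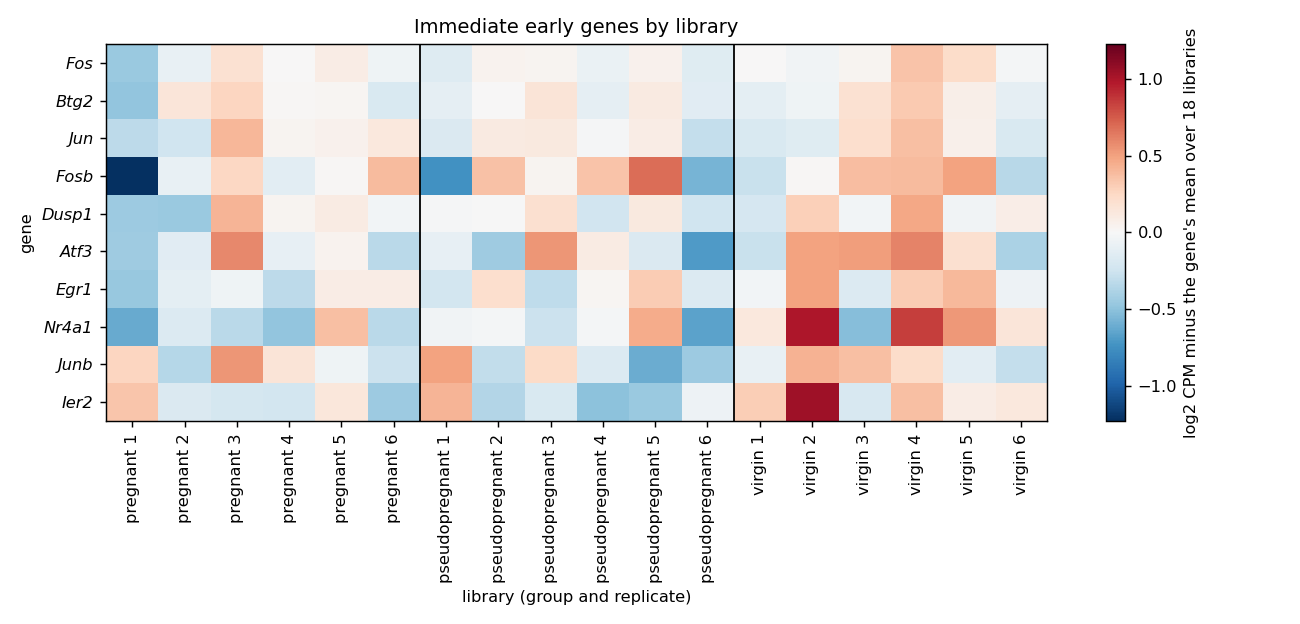
Log2 CPM of the 10 genes (rows) in the 18 libraries (columns, pregnant, pseudopregnant and virgin from left to right), centred on each gene's mean. Virgin replicate 4 is above the mean for all 10 genes, and pseudopregnant replicate 6 for none.

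Across libraries some of the genes moved together closely. Over the 18 libraries, which span the 3 groups and share scaling, the gene whose log2 CPM was most like that of Fos among 14674 others was Btg2 (Pearson's r 0.84, Spearman's rho 0.72), and that of Btg2 was Fos. Jun ranked 3 for Fos (r 0.79), Fosb 4 (r 0.76) and Dusp1 9 (r 0.72). In the other direction Fos ranked 12 for Jun, 14 for Dusp1 and 248 for Fosb. Leaving out the 2 libraries in which Fos was farthest from its median lowered r with Btg2 to 0.61 and with Jun to 0.71. Egr1 and Nr4a1 formed a second pair (r 0.85, rho 0.81), in which Nr4a1 ranked 3 for Egr1 and Egr1 ranked 4 for Nr4a1. Junb stood apart from Fos (r 0.04) and was closest among the 10 to Atf3 (r 0.66), which ranked 1037 for Junb among all genes. Ier2 showed r of -0.10 with Fos and -0.46 with Fosb. Of the 45 pairs, 19 had r above 0.5 and 7 below 0, with a median of 0.46, and of 0.40 within groups. The share of pairs over all genes with such r was not computed. For some of the 10 genes such values were common, as Egr1 at r 0.67 ranked 1172 of 14674 for Fosb. For Ier2, Nr4a1 at r 0.50 ranked 3868. These correlations are descriptions.

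**Figure D4:**
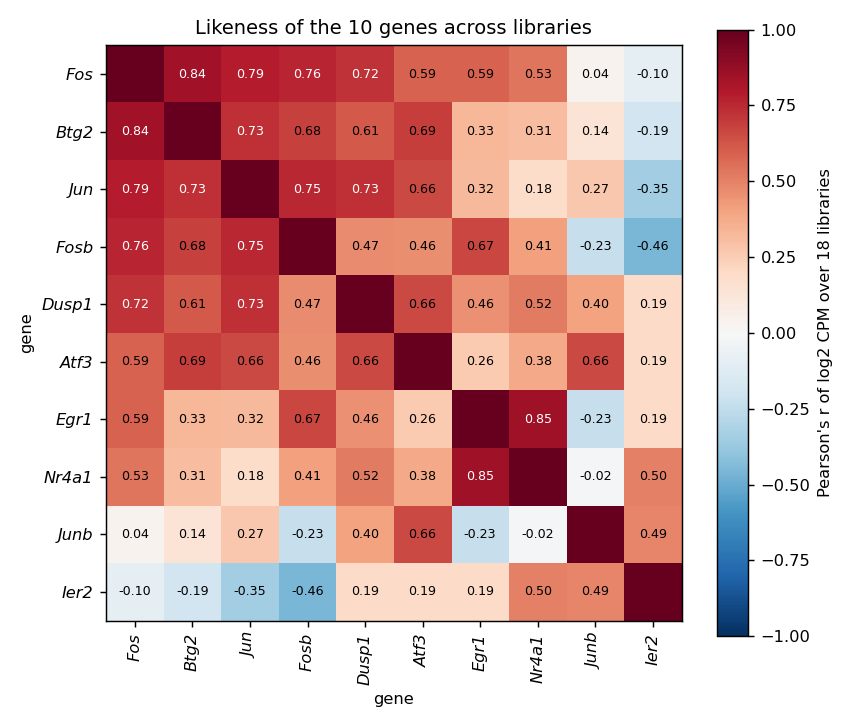
Pearson's r of log2 CPM over the 18 libraries for each pair of the 10 genes. Fos has values above 0.7 with Btg2, Jun, Fosb and Dusp1, Egr1 and Nr4a1 a pair (0.85), and Ier2 has negative values with Fosb (-0.46) and Fos (-0.10).

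Outside the 10 genes, those most like their mean over the 18 libraries were Pcgf2, a Polycomb gene (r 0.82, 6.88 to 13.0 CPM), Csrnp1 (0.80), Fosl1 (0.78), Ppp1r15a, which encodes the eIF2α phosphatase subunit GADD34 (0.78), and Zfp36, whose product destabilises AU-rich mRNAs (0.77). They were followed by the mitochondrial serine carrier family gene Sfxn3 (0.76), Hbegf (0.75), Dnajb1 (0.75), the kinase gene Plk3 (0.75) and the glutamine synthetase gene Glul (0.74). Without the 2 libraries in which the mean of the 10 genes was farthest from its median, r fell to 0.50 for Dnajb1, 0.53 for Glul and 0.58 for Hbegf, and was 0.68 to 0.76 for the other 7. Of these 10, 5 were on the list of other immediate early genes. Of the 47 tested genes on that list, 12 (25.5%) were among the 100 most alike of 14665.

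Properties of the libraries moved with single genes. A length slope was computed for each library, the slope of the deviations of log2 CPM on log2 exon length over 5022 well expressed genes, so that a positive slope means that long transcripts are higher than in the average library. Ier2, with 1522 exonic bases the shortest of the 10, correlated with it at r -0.90 (rho -0.93) over 18 libraries. Fosb, with 6243 exonic bases the longest, did so at r 0.75 (rho 0.73), Jun at 0.58 and Junb at -0.44, while for the other 6 r was between -0.14 and 0.38. Among those 6 was Egr1 (r 0.19), whose longest coding transcript (4484 bases) is longer than that of Fosb (3782). Without the 2 libraries farthest from the median slope, r was -0.89 for Ier2 and 0.81 for Fosb. An r lower than that of Ier2 was held by 6.78% of tested genes. For Fosb that share was 84.1%, for Jun 75.2% and for Junb 30.2%. The median slope was 0.022 in pregnant, 0.1 in pseudopregnant and -0.053 in virgin libraries, and virgin replicate 2, the highest for Ier2, had the lowest slope (-0.247). With the slope as a covariate, an alternative chosen after seeing the data, Ier2 was at -0.23 in pregnant and -0.17 in pseudopregnant against virgin libraries. Fosb moved to -0.49 and -0.56 and Nr4a1 stayed at -0.68 and -0.52. At an unadjusted p under 0.05 there were then 4 and 2 of 10 genes, where 4.67% and 2.11% of all genes held it in that fit, and 0 at an adjusted p under 0.05 (adjusted p = 0.842 and 1 for Fosb, edgeR).

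**Figure D5:**
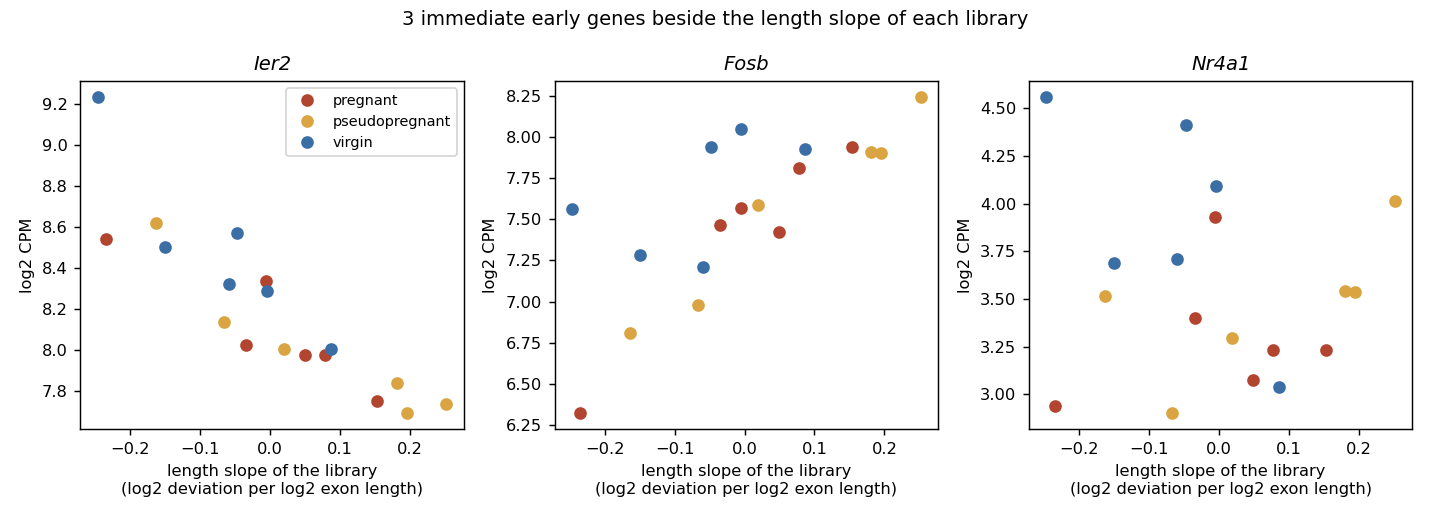
Log2 CPM of Ier2, Fosb and Nr4a1 (1 panel each, vertical axis) against the length slope of the library (horizontal axis, log2 deviation per log2 exon length), each point a pregnant, pseudopregnant or virgin library. Ier2 is lower (r -0.90) and Fosb higher (r 0.75) in libraries with a larger slope, and Nr4a1 shows little relation (r -0.14).

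A villus-minus-crypt score also varied between libraries, taken as the mean centred level of absorptive enterocyte genes minus that of proliferation genes. Its median was 0.112 in pregnant, -0.276 in pseudopregnant and -0.528 in virgin libraries, and it ran over -0.785 to 1.478 in all. Junb (r 0.60), Jun (0.51) and Atf3 (0.41) had positive correlations with it over the 18 libraries, and Nr4a1 (-0.53) and Egr1 (-0.50) negative ones. Of all tested genes, 89.1% had a lower r with the score than Junb, 84.4% than Jun and 79.1% than Atf3. A lower r than that of Nr4a1 was held by 17.3% and than that of Egr1 by 19.4%. Without the 2 libraries farthest from the median score, r was 0.42 for Junb, 0.24 for Jun, 0.12 for Atf3, -0.46 for Nr4a1 and -0.55 for Egr1. With this score as a covariate Nr4a1 was at -0.48 in pregnant and -0.40 in pseudopregnant against virgin libraries, and Ier2 at -0.36 and -0.46. The part of this score, or of the length slope, in the fold changes was not tested further. Of 18 leukocyte markers 8 passed the count filter. The summed level of all 18, without TMM scaling, was 17.8 to 41.9 CPM in pregnant, 23.1 to 39.0 CPM in pseudopregnant and 18.1 to 44.2 CPM in virgin libraries. The 13 markers of stroma and endothelium, on the same unscaled CPM, summed to 4.37 to 8.44, 3.58 to 7.07 and 4.86 to 7.19 CPM in the same 3 groups.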

How the data were processed

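RNA from sorted ileal epithelial cells of 18 libraries (6 pregnant, 6 pseudopregnant, 6 virgin) was isolated with an RNeasy Plus Micro kit, enriched for poly(A) and sequenced from NEBNext Ultra II Directional libraries, per the labels' protocols. Each library has a deposited table of raw counts, 1 row per Ensembl gene. The submitters' processing notes list build GRCm38, the aligner HISAT2 2.0.4, the counter featureCounts, Subread 2.0.0, DESeq2 1.24.0 and FastQC 0.11.5. Whether reads were counted by strand, and with which annotation release, is not given in the sources used here.

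Groups came from the titles. Symbols were taken from GENCODE M21, which names 47310 of 47729 genes, and the other 419 held at most 0.029% of counts. Genes were filtered with filterByExpr. Under R 4.3.3, all 18 libraries entered 1 quasi-likelihood fit (edgeR 4.0.16, TMM factors, legacy = FALSE) with a mean for each group. Tests were two-sided with Benjamini-Hochberg adjustment over 14675 genes and a threshold of 0.05, and intervals are 95%. SE is the fold change divided by the root of the F statistic. Log2 CPM used a prior count of 2. The fit was also run on simulated counts, with the same dispersion for every gene and each gene drawn on its own. Dispersions of the 10 genes ran from 0.0258 (Fos) to 0.0999 (Fosb) and their levels moved together. That run therefore does not show how the test behaves in these libraries. No library repeated another of its own group, as counts of replicates differed with a chi-square of 35.5 to 455.8 for each degree of freedom. Pairs of libraries from different groups were not compared in this way.

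All 10 genes were named in every comparison. So were the 4 genes of smallest p on the list of other immediate early genes, the 2 of smallest p on the lists of upstream regulators, AP-1 partners and chaperones, and the 10 non-members most like the mean of the 10 genes. The genes and lists were chosen with earlier results of these data known. Alternatives were DESeq2's size factors, limma-voom (limma 3.58.1), DESeq2 1.42.0, no filter, a filter at 1 CPM in 6 or more libraries, only the 12 libraries compared, the replicate number as a block, the villus-minus-crypt score or the length slope as a covariate, and each library left out.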

Additional observations from a re-analysis of the deposited data

Results flagged for a closer look

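The lowest of the 6 pregnant libraries for Fosb, pregnant replicate 1, stood at 80.0 CPM, where the next was at 172 CPM. That gap was 0.684 of the group's range, above Dixon's critical value of 0.625 for 6 samples. Of 30 groups examined (10 genes in 3 groups), 1 had such a library, and chance gives about 1 in 20. The same library had a length slope of -0.235, the lowest of the pregnant group. It also had the lowest mean of the 10 genes (-0.386), but that mean includes Fosb itself, and the mean without Fosb was not computed. Pregnant replicate 1 had the fewest counts of the 18 libraries (24.9 M) and the lowest TMM factor (0.875). It was also the lowest of the 18 for Fos, Jun, Egr1 and Btg2, but the highest pregnant library for Ier2 (372 CPM). Without pregnant replicate 1 the log2 fold change of Fosb was -0.046 in pregnant against virgin and 0.012 in pregnant against pseudopregnant libraries. The part of the length slope or of depth in the low Fosb value was not tested.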

How the results depend on the processing

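Of the 10 genes, 0 passed an adjusted p of 0.05 under any of the 21 alternatives in any comparison. Against virgin libraries, 8 to 10 of 10 fold changes were negative under every alternative in both comparisons. The share of all genes with a negative fold change is not given for the alternatives. At an unadjusted p under 0.05 there were 1 to 4 (pregnant) and 0 to 3 (pseudopregnant) of the 10. The share of all genes at that level moved with the alternative too. In the pregnant comparison it was 4.67% where 4 were found (length slope). In the pseudopregnant comparison it was 13.5% where 3 were found (replicate block) and 4.76% where 0 were (without virgin replicate 2). Between pregnant and pseudopregnant libraries 2 to 8 of 10 were negative. Over all genes, DESeq2 called 5 in pregnant against virgin libraries (Slc31a1, Gm42427, Cyp3a44, Bco1 and Mbl2) and the replicate block 1 (Gm42427), where edgeR without it called 0, and the cause was not tested. The 10 genes were on neither list.

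Replicate numbers were not taken as pairing the libraries, since the labels give them no shared source and not every pair's r was above 0.1: over 18 same-numbered pairs r was -0.48 to 0.66, with 10 above 0.1, and 6 matched their own number best. Numbers 1, 3 and 5 were above 0.1 in all 3 comparisons, and the libraries numbered 3 had the 3 highest villus-minus-crypt scores (pregnant 1.478, pseudopregnant 1.021, virgin 1.276). A shared source was not tested. With the replicate block 3, 3 and 0 of the 10 genes had an unadjusted p under 0.05, where 6.67%, 13.5% and 4.21% of all genes did, in the pregnant, pseudopregnant and pregnant against pseudopregnant comparisons, and Fos in the last was at -0.008.

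The signs that turned are as follows, and the cause was not tested. In pregnant against virgin libraries Jun was 0.006 with DESeq2's size factors and with DESeq2 and 0.003 with only the 12 libraries, and Junb was 0.042 with the length slope. In pregnant against pseudopregnant libraries Btg2 and Dusp1 were both 0.002 with DESeq2's size factors and with DESeq2, and Fos was -0.015 with limma-voom. There the villus-minus-crypt covariate gave -0.017 for Fos, -0.014 for Jun and -0.042 for Atf3. The length slope gave 0.075 for Fosb, -0.06 for Ier2, 0.033 for Btg2 and 0.012 for Dusp1.

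Leaving out each library in turn, the ranges in pregnant against virgin libraries were -0.189 to -0.07 for Fos, -0.301 to -0.046 for Fosb, -0.092 to 0.072 for Jun, -0.14 to 0.047 for Junb, -0.429 to -0.18 for Atf3, -0.142 to -0.001 for Btg2 and -0.254 to -0.061 for Dusp1. In pseudopregnant against virgin libraries they were -0.184 to -0.086 for Fos, -0.19 to 0.065 for Fosb, -0.11 to 0.021 for Jun, -0.35 to -0.103 for Junb, -0.479 to -0.22 for Atf3, -0.117 to -0.011 for Btg2 and -0.206 to -0.05 for Dusp1. In pregnant against pseudopregnant libraries the ranges were -0.048 to 0.086 for Fos, -0.264 to 0.012 for Fosb, -0.037 to 0.126 for Jun, 0 to 0.247 for Ier2, -0.112 to 0.213 for Atf3, -0.072 to 0.083 for Btg2 and -0.119 to 0.074 for Dusp1. Nr4a1 stayed at -0.82 to -0.523 in pregnant and -0.631 to -0.373 in pseudopregnant against virgin libraries. Nr4a1, the scarcest of the 10, had at least 166 counts in every library, so its counting error was small beside its within-group SD of 0.433 on the log2 scale.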
